A study of Mus musculus with 15 samples.

Results

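HSF1 regions that lie at an end of a single protein-coding gene were described in brown adipose tissue of mice, the fat depot that burns fuel to make heat in the cold. The data are chromatin immunoprecipitation followed by sequencing (ChIP-seq) with an antibody to HSF1 (Cell Signaling 4356), deposited as 1 peak list per library. Regions were made by merging the peaks of both libraries of the later-numbered wild type pair (replicates 1.1 and 2.1, 40 min of cold), and those holding a peak of both were kept. Of 10367 such regions, 2287 (22.1%) had their midpoint within 1000 bp of an end of exactly 1 protein-coding gene. They are called gene-end regions here. They lay at 2246 genes, of which 2206 had 1 region, 39 had 2 and 1, the 14-3-3 gamma gene Ywhag, had 3. Of all 21887 protein-coding genes, 10.3% had such a region.

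The 10 HSF1 libraries form 5 groups of 2. Wild type mice were kept at room temperature, or put in the cold for 40 min (the first pair, replicates 1 and 2), for 4 h, or again for 40 min (the second pair, replicates 1.1 and 2.1). TXNIP knockout mice were put in the cold for 40 min. TXNIP is the thioredoxin-interacting protein, a restraint on glucose uptake. All groups share the fixation, 25 min in 2 mM DSG and 12 min in 0.8% formaldehyde. The labels give no age, sex or strain, do not say whether the knockout is whole-body or limited to a tissue, do not say that replicates came from separate animals, and do not say whether the second pair is new tissue or the first pair's. Nor is it given which of the wild type pairs belongs with the knockout. The p-values below therefore measure only the spread between these libraries, which may be technical. Since the data are of DNA binding, the tissue could not be checked against RNA markers.

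HSF1 is the main transcription factor of the heat shock response. It is held inactive by chaperones, and when unfolded proteins occupy them it forms trimers that bind heat shock elements, which are alternating GAA and TTC units spaced by 2 bases. Its classical targets are the genes of cytosolic chaperones, so that binding restores the capacity that released it.

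The libraries differed widely in what they called. On the assembled chromosomes, the deposited lists hold 919 and 1269 peaks at room temperature, 2287 and 1670 in the first pair, 123 and 351 at 4 h, 10399 and 10633 in the knockout, and 12644 and 14583 in the second pair. The 2287 peaks of the first list of the first pair equal the number of gene-end regions by coincidence. No read counts came with the lists, so the depth behind them is unknown, and a region without a peak may be one whose signal was not detectable at that depth. In a whole tissue, binding in fewer cells and weaker binding per cell cannot be told apart. A called region here is one overlapped by a peak of the list by at least 1 bp. Fold is the authors' enrichment at the summit over local background, and folds of different libraries are given side by side only as a description.

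Promoter sequences of strongly bound regions are shown first, as 81 bases upstream of the gene start (5′ to 3′ along the gene, RefSeq promoters of GRCm38.p6). The first 8 belong to regions called in all 10 lists, in the order of their lowest fold, among those whose promoter window holds the summit and a heat shock element of 3 units with up to 1 mismatch. Capitals mark the unit bases that match. They were chosen after the values were seen. Hspa8, Uspl1, Hsp90ab1 and Hsp90aa1, which with Dnaja1 make up the 5 regions of highest lowest fold, are not among the sequences shown. The stretches are chr4:40722305-40722385, chr6:128438766-128438846, chr5:149636318-149636398, chr17:34959306-34959386, chr5:135887768-135887848, chr3:135438399-135438479, chr5:50059103-50059183 and chr5:139484646-139484726, on the plus strand for Dnaja1, Hspb1 and Ube2d3 and on the minus strand for the others.
Dnaja1: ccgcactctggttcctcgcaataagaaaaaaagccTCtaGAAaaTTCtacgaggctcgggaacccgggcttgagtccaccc
Fkbp4: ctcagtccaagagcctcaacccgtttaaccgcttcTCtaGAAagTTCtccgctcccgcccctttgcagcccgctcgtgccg
Hsph1: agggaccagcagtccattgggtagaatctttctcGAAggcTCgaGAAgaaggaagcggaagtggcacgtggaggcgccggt
Hspa1b: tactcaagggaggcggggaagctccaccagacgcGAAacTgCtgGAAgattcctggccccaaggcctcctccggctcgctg
Hspb1: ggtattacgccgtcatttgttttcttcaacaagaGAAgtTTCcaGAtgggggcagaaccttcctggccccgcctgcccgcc
Ube2d3: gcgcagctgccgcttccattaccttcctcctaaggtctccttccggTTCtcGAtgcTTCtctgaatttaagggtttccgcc
Adgra3: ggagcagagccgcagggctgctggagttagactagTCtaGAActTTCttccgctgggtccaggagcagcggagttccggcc
Zfand2a: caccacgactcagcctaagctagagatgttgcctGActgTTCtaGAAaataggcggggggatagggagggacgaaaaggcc

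Each of the 8 printed elements misses the 3-unit pattern GAANNTTCNNGAA, or its reverse complement, by 1 base. The centre of the element lay 3 bp from the summit at Adgra3, an adhesion receptor, 4 bp at Ube2d3, a ubiquitin-conjugating enzyme, and 10 bp at Zfand2a, a stress-inducible zinc finger protein. It lay 16 bp away at the small heat shock protein Hspb1, 27 bp at Dnaja1 and at Fkbp4, and 32 bp at Hsph1. At Hspa1b it lay 100 bp away. Hsph1 had a nearer match, 27 bp from the summit and centred 37 bp after the gene start, which is outside the upstream stretch printed. Summits are those of replicate 1.1 of the second pair, and since these sequences were chosen for holding both a summit and an element, the distances are a description only. Hspa1b and Hspa1a are near-identical copies, so how reads were split between them is uncertain.

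A further 3 regions called only in the second pair and both knockout libraries (Msi2, Clec14a and Cidec) and 3 called in neither knockout library (Usp38, Ube3c and Tial1) are shown around their summit. They are the ones of highest fold whose summit lay far enough inside the upstream part of the window. They span chr11:88718368-88718448, chr12:58269265-58269345, chr6:113435898-113435978, chr8:81014987-81015067, chr5:29569112-29569192 and chr7:128461619-128461699, on the plus strand for Ube3c and the minus strand for the others. None holds a 3-unit element with up to 1 mismatch near the summit. The first 8 had to hold one and these 6 did not, so the sets of sequences are no comparison of how often it occurs. Msi2 holds an element of 2 units, in capitals.
Msi2: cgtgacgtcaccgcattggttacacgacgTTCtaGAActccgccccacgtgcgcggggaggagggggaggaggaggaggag
Clec14a: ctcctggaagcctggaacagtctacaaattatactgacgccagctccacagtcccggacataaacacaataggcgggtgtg
Cidec: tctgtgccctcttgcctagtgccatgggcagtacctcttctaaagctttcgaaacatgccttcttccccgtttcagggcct
Usp38: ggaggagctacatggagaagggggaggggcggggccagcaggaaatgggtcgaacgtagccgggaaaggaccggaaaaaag
Ube3c: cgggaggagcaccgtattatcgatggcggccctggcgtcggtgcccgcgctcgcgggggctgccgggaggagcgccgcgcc
Tial1: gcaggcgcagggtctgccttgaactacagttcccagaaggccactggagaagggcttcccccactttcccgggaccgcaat

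Among the regions with the highest folds, genes of chaperones were prominent. 37 gene-end regions (1.62%) were called in all 10 lists, against 0.916% of all 10367 regions and 58 (0.718%) of the regions elsewhere. Of these 37, 18 lay at genes of 6 lists of protein folding and breakdown, and 19 did not, while 52 of the 2287 gene-end regions (2.27%) lay at such genes. These lists name known HSF1 targets and were written with earlier results of these data known, so the count is not independent evidence.

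Hspa8, the constitutive HSP70, had a region at chr9:40799189-40802798 with folds of 112 and 97.4 in the room temperature pair, 162 and 154 in the first pair, 26.4 and 55.0 at 4 h, 503 and 539 in the knockout, and 651 and 625 in the second pair. Uspl1, a SUMO isopeptidase, had the highest folds of all gene-end regions in 8 of the 10 lists (chr5:149183221-149185399): 155 and 155 in the room temperature pair, 226 and 208 in the first pair, 25.7 and 62.1 at 4 h, 626 and 619 in the knockout, and 778 and 802 in the second pair. Dnaja1, an HSP40 co-chaperone of HSP70, had folds of 123 and 102, 192 and 178, 23.4 and 35.3, 561 and 542, and 699 and 670 in the same order. In each of these regions both 4 h libraries were lowest and both second pair libraries highest, and the values of a group did not overlap those of the next.

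The HSP90 genes followed. Hsp90ab1, the constitutive cytosolic HSP90, had folds of 121 and 112 in the room temperature pair, 224 and 208 in the first pair, 22.3 and 43.0 at 4 h, 625 and 591 in the knockout, and 763 and 771 in the second pair. Hsp90aa1, the inducible form, had 121 and 118, 179 and 134, 20.4 and 40.0, 511 and 476, and 555 and 554. The HSP90 co-chaperone Fkbp4 had 70.8 and 69.3, 137 and 118, 17.6 and 30.1, 415 and 387, and 500 and 520. Again every 4 h value lay below every room temperature value.

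Further members of the HSP70 machine were Hsph1, the HSP110 nucleotide exchange factor, and Hspa1b, the inducible HSP70. The Hsph1 region ran from 15.4 and 32.1 at 4 h to 509 and 530 in the second pair, with 97.5 and 117 at room temperature. The Hspa1b region ran from 12.4 and 19.3 to 488 and 547, with 111 and 102 at room temperature. Hspb1 ran from 12.0 and 17.9 at 4 h to 387 and 426 in the second pair. By its midpoint its region was assigned to the far end of the gene, although its summit lay 95 bp upstream of the gene start.

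Genes outside protein folding were among the 12 regions of highest lowest fold as well. Mat2a, which makes S-adenosylmethionine, had folds of 44.6 and 40.4 in the room temperature pair, 71.8 and 73.5 in the first pair, 17 and 25.7 at 4 h, 242 and 249 in the knockout, and 295 and 290 in the second pair (chr6:72437622-72440519). Acot7, an acyl-CoA thioesterase, had 37.4 and 41.1, 61.2 and 61.4, 13.1 and 18.9, 178 and 177, and 236 and 199 (chr4:152177117-152178884). Lgals7, which encodes galectin-7, had 32.2 and 32.8, 40.8 and 39.5, 11.02 and 22.5, 133 and 144, and 165 and 140, at its far end. At all 3 the 4 h values were lowest, and at Lgals7 the knockout and second pair values overlapped.

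**Figure D1:**
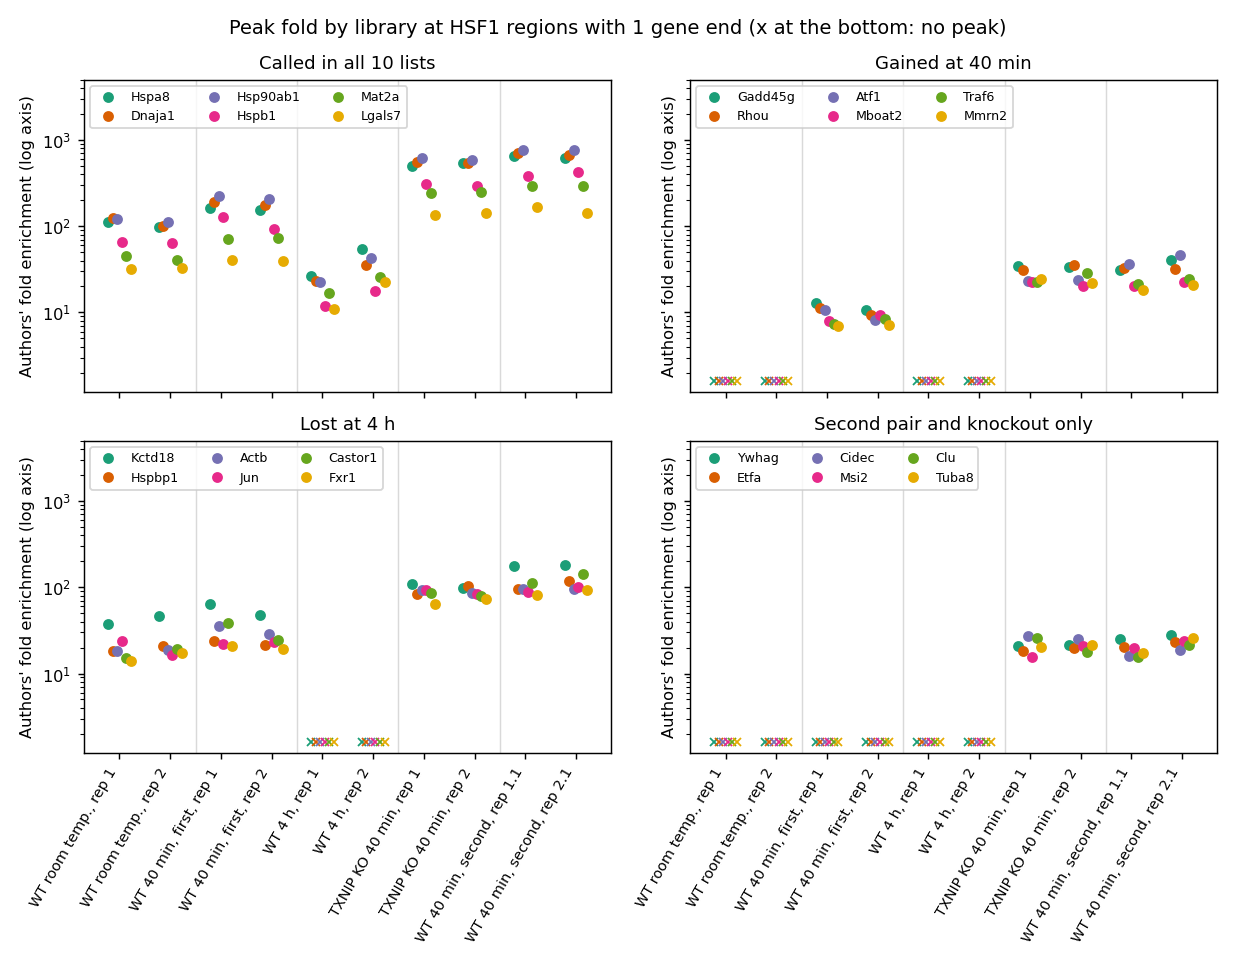
Authors' fold enrichment (log axis) of 24 gene-end regions in each of the 10 libraries, 6 per pattern, 1 point per region and library, with a cross at the bottom where the list holds no peak. The 6 regions plotted from those called in all 10 lists have their lowest folds at 4 h and their highest in the second pair and the knockout.

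Gene lists differed in the folds of their regions, and they say nothing of genes outside them. The counts of genes with a region stand beside the 10.3% of all protein-coding genes that had one. Of 37 genes of cytosolic chaperones and co-chaperones, 24 had a gene-end region, 25 regions in all, and 4 others lay at ends shared by several genes. Their median lower fold of the second pair was 204, against 4.78 over all gene-end regions. Of the 25, 18 were called in both room temperature libraries, 21 in both first pair libraries, 11 in both 4 h libraries and 21 in both knockout libraries. The weakest were Fkbp5, a glucocorticoid-induced immunophilin, with second pair folds of 4.18 and 3.09, and a separate region at the far end of Hspa1b with 3.06 and 3.26.

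Among chaperones called in replicate 2 but not in replicate 1 of the 4 h pair were Dnaja4, Bag3 and Ptges3. Bag3, a co-chaperone of selective autophagy, had folds of 16.0 and 27.7 in the room temperature pair, 62.8 and 45.1 in the first pair, 8.21 in 4 h replicate 2, 214 and 179 in the knockout, and 231 and 255 in the second pair. Dnajb6, Bag2 and Dnajb5 were called in both first pair libraries and in neither room temperature library. Their first pair folds were 5.07 and 6.12, 4.11 and 4.73, and 7.25 and 3.90, and none of the 3 was called at 4 h.

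Subunits of TRiC, the chaperonin that folds actin and tubulin, had 4 gene-end regions (Cct4, Tcp1, Cct8 and Cct2) among 8 genes, and the other 4 genes lay at ends shared with a neighbour. Their median lower fold of the second pair was 159. Cct4 was the strongest, at 203 and 201 in the knockout and 238 and 260 in the second pair. Cct2 was the weakest, at 39.8 and 42.5, and was called in neither 4 h library.

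Of 18 ubiquitin and degradation partners, 7 had a region. Uspl1, Ubqln1, Ube2d3 and Ubb, which encodes polyubiquitin, were called in all 10 lists, while Stub1, Ube2d2a and Vcp had lower second pair folds of 5.13, 3.94 and 2.74 and were called in no time-course library. The split within the list was wide, since the fold of Ubb, the weakest of the first 4, was 215 and 218 in the second pair. Of 31 proteasome subunits, 4 had a region (12.9%, against 10.3% of all protein-coding genes), all with a lower fold of 4.80 or less.

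Chaperones of other compartments were bound in part. In the endoplasmic reticulum list 7 of 17 genes had a region, and 3 were counted at ends shared by several genes. Serpinh1, the collagen chaperone HSP47, was called in all 10 lists with second pair folds of 360 and 327. Pdia3 and Canx, which fold glycoproteins, had 80.6 and 74.4, and 49.97 and 45.97. In the mitochondrial list 5 of 16 genes had a region, and 1 was counted at ends shared by several genes. Of the 5, only Hspa9, the mitochondrial HSP70, was called outside the second pair and the knockout. It had 18.1 and 11.5 at room temperature and 83.0 and 90.8 in the second pair. Hspd1 had 4.58 and 6.86 in the second pair at its far end. Any region at an end that Hspd1 shares with another gene is not counted here.

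**Figure D2:**
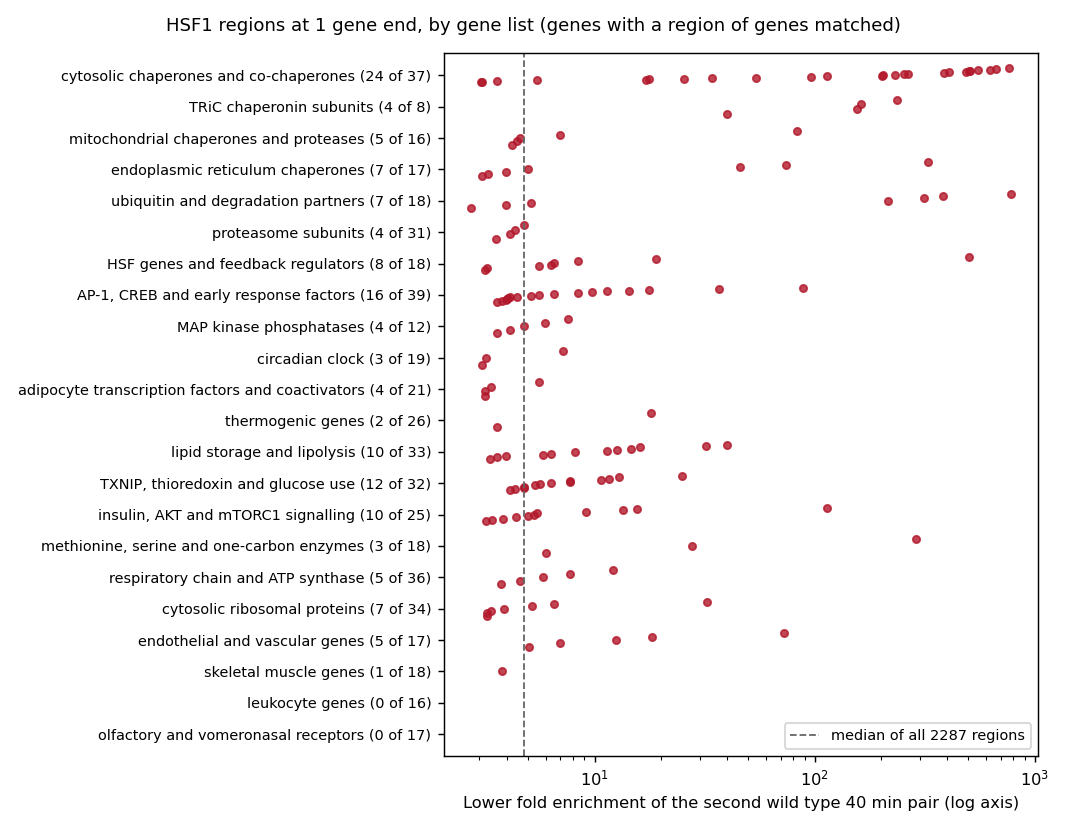
Lower fold of both second pair libraries (log axis) for each gene-end region at genes of 22 lists, 1 point per region, with the number of genes that have a region and of genes matched. Cytosolic chaperones, TRiC subunits and 4 genes of the ubiquitin and degradation list reach folds above 100. So do Serpinh1, Mat2a, Castor1 and, in the list of HSF genes and feedback regulators, Fkbp4. Lists with regions but none above 100 have medians from 3.23 (circadian clock) to 12.5 (endothelial genes), beside 4.78 over all regions (dashed line).

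Genes of fat cells showed weaker binding than those of cytosolic chaperones. Of 33 genes of lipid storage and lipolysis, 10 had a region (30.3%, against 10.3% of all protein-coding genes). Their median lower fold of the second pair was 9.76, against 4.78 over all gene-end regions. Plin2, a lipid droplet coat protein, was called in both room temperature libraries (7.15 and 9.37) and had 15.2 and 10.9 in the first pair, none at 4 h, 50.04 and 41.3 in the knockout, and 46.6 and 39.8 in the second pair. G0s2, an inhibitor of the lipase ATGL, was called in replicate 2 at room temperature (6.25), and had 9.66 and 6.68 in the first pair, 44.2 and 35.2 in the knockout, and 32.3 and 39.6 in the second pair. At both genes the knockout and second pair values overlapped.

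Of 26 thermogenic genes, Acadm and Cidea had a region (7.69%, against 10.3% of all protein-coding genes). Acadm, the medium-chain acyl-CoA dehydrogenase, was called in 1 first pair library (6.52) and had 20.7 and 21.3 in the knockout and 18.1 and 18.5 in the second pair. Of 21 adipocyte transcription factors and coactivators 4 had a region, with lower folds of 5.57 at most. None of 16 leukocyte genes and none of 17 olfactory and vomeronasal receptors matched had one, 1 of 18 skeletal muscle genes did, and 5 of 17 endothelial genes did. Tie1, an endothelial receptor kinase, had 72.3 and 73.1 in the second pair and 12.6 and 13.7 at room temperature. Whether binding at Tie1 came from endothelial cells in the depot was not tested.

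Early response factors were mostly weak, apart from Jun. Of 39 AP-1, CREB and early response genes, 16 (41.0%) had a region, 17 regions in all. Their median lower fold of the second pair was 5.57, beside 4.78 over all gene-end regions. Jun, an AP-1 subunit, had folds of 24.1 and 16.2 in the room temperature pair, 21.7 and 23.4 in the first pair, none at 4 h, 92.9 and 84.2 in the knockout, and 88.4 and 101 in the second pair. The room temperature and first pair values of Jun overlapped. Atf1 and Crem were called in both first pair libraries and in neither room temperature library.

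The gene targeted in the knockout, Txnip, had a region at its start (chr3:96557066-96560701) and a second at its far end. The start region had no peak in room temperature replicate 1 and folds of 4.30 in replicate 2, 3.87 and 5.01 in the first pair, 4.06 and 8.21 at 4 h, 9.96 and 11 in the knockout, and 12.9 and 13.9 in the second pair. The far-end region was called only in the knockout (9.54 and 10.1) and the second pair (10.8 and 13.2). Both libraries labelled TXNIP KO therefore held peaks at both ends. The labels do not give the deleted stretch, so these peaks check nothing about the deletion. Arrdc4, a paralog of Txnip that also restrains glucose uptake, had 26.4 and 19.96 in the knockout and 25.1 and 25.4 in the second pair.

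Cold for 40 min, in the first pair, was compared with room temperature to ask which regions were bound after a short exposure. Of the gene-end regions, 8.75% and 11.2% were called at room temperature and 17.8% and 13.4% in the first pair, beside 8.58%, 11.9%, 21.4% and 15.6% of all regions in the same 4 libraries. The means were 9.99% ± 1.76 and 15.6% ± 3.09 (SD, n = 2 each), a difference of 5.62 points (two-sided exact permutation test, p = 0.333, the smallest this design allows). With the 4 lists taken at equal length the difference was -0.284 points. List length and condition cannot be told apart here, so this value decides nothing about the cold.

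In all, 54 gene-end regions (2.36%) were called in both first pair libraries and in neither room temperature library, against 3.86% of all regions. Of the 2012 in neither room temperature library these were 2.68%, beside 4.93% of the regions elsewhere. The count was 97 without room temperature replicate 2, 149 without first pair replicate 2 and 9 with lists of equal length. Of the 54, 3 (5.56%) lay at genes of the protein folding and breakdown lists, beside 2.27% of all gene-end regions.

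Gadd45g, a stress-induced growth arrest gene, had the highest lower fold of the first pair, 12.8 and 10.6, followed by 34.4 and 33.8 in the knockout and 31.5 and 40.1 in the second pair. Its region was 5450 bp wide (chr13:51844909-51850358) and was assigned to the far end by its midpoint only, 842 bp from that end. Rhou, a small GTPase, had 11.4 and 9.46, 31.1 and 35.6, and 32.9 and 31.7. Atf1, a CREB-family factor, had 10.6 and 8.23, 22.9 and 23.6, and 36.6 and 45.8. Only at Atf1 of these 3 did the second pair lie above the knockout in every library.

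A930018P22Rik, Mboat2, Traf6 and Mmrn2 followed. Mboat2 is a lysophospholipid acyltransferase, Traf6 a ubiquitin ligase of immune signalling and Mmrn2 an endothelial matrix protein. Their first pair folds lay between 7.01 and 11.8, knockout folds between 20.3 and 28.5 and second pair folds between 18.2 and 37.05. None of these 7 regions was called at 4 h.

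In the reverse direction, 1 region was called in both room temperature libraries and in neither first pair library. It lay at Pik3r2, a regulatory subunit of PI3-kinase, and had 4.92 and 5.05 at room temperature, 16.8 and 20.3 in the knockout and 13.5 and 21.8 in the second pair. It was picked out after its values were seen. All 4 room temperature and first pair libraries called 174 of the regions (7.61%), a share near the 7.22% of all regions.

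Few gene-end regions were called at 4 h. The shares were 1.71% and 3.10%, beside 1.05% and 3.29% of all regions, with a mean of 2.40% ± 0.989 (SD, n = 2). The difference was -7.59 points from room temperature and -13.2 points from the first pair (two-sided exact permutation tests, p = 0.333 each, the smallest possible). With lists of equal length the differences were -0.656 and -0.525 points. The 4 h lists were also the shortest, and list length and time cannot be told apart. Every gene-end region called at 4 h was also called in a room temperature library, a pattern not counted here over all regions. Replicate 2 held 32 that replicate 1 did not, and replicate 1 held none that replicate 2 lacked.

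Of the 182 regions called in both room temperature libraries, 115 (63.2%) were called in neither 4 h library and 37 (20.3%) in both. The shares among 610 regions elsewhere were 65.9% and 9.51%. As a share of all 2287 the 115 were 5.03%, against 4.99% of all regions. The 115 became 186 without room temperature replicate 1 and 16 with lists of equal length. Among regions whose second pair folds were both 100 or more, 34 of 59 gene-end regions and 27 of 73 others were called in both 4 h libraries. These counts were split by fold after the data were seen, and no test was made of them.

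Kctd18 was the strongest region lost at 4 h, with folds of 37.2 and 46.5 in the room temperature pair, 63.8 and 47.9 in the first pair, 109 and 97.2 in the knockout, and 177 and 184 in the second pair (chr1:57969448-57971089). Hspbp1, a regulator of HSP70 nucleotide exchange, had 18.3 and 20.7, 23.8 and 21.4, 82.9 and 104, and 96.6 and 119. Actb, cytoplasmic actin, had 18.1 and 18.8, 35.8 and 28.4, 92.1 and 86.9, and 96.8 and 95.1. At Kctd18 and Actb every second pair value lay above every knockout value, and at Hspbp1 they overlapped.

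Castor1, an arginine sensor of the mTORC1 pathway, had 15.3 and 19.1 in the room temperature pair, 38.4 and 24.5 in the first pair, 86.9 and 79.6 in the knockout, and 113 and 144 in the second pair. Fxr1, an RNA-binding protein of the fragile X family, had 14.1 and 17.2, 20.8 and 19.2, 63.9 and 72.9, and 81.2 and 91.9. The remaining ones of the 8, Jun, Zfp526 and the PDZ scaffold Mpdz, had room temperature folds between 12.6 and 24.1. All 8 were called in both first pair and both knockout libraries.

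In both 4 h libraries 39 regions were called, the 37 above along with Txnip and Pgk1, which room temperature replicate 1 did not call. Pgk1, a glycolytic kinase, stood apart (chrX:106186727-106187200). It had no peak in room temperature replicate 1 or in either first pair library, 6.25 in room temperature replicate 2, 31.7 and 5.71 at 4 h, 3.73 and 5.53 in the knockout, and 5.97 and 5.66 in the second pair. The 31.7 in 4 h replicate 1 was the highest fold of any gene-end region in that list, and the other replicate did not share it.

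The TXNIP knockout was compared with the second wild type pair to ask which regions remained without TXNIP. Of the gene-end regions 72.2% and 75.9% were called in the knockout libraries, beside 77.8% and 78.4% of all regions. Since every region was chosen for calls in the second pair, the comparison can only show absence in the knockout. Both knockout libraries called 1468 regions (64.2%, against 69.1% of all regions). Neither called 368 (16.1%, against 12.9% of all regions), and the remaining 451 (19.7%) were called in exactly 1. The 368 became 636 without knockout replicate 2. Rebuilt from 1 second pair list alone, the count was 941 or 752.

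The 368 regions were the weak ones. Their lower fold of the second pair had a median of 3.58 and reached 6.37 at most, against a median of 4.78 over all gene-end regions. None was called in any of the 6 room temperature, first pair and 4 h libraries. The same held for 962 of the 967 regions elsewhere that neither knockout library called. Abra, an actin-binding protein of striated muscle, had 6.37 and 6.69, and Pdgfd, a platelet-derived growth factor, had 6.17 and 7.03. Pcdh1, a protocadherin, had 6.77 and 6.003, and Phgdh, the entry enzyme of serine synthesis, had 7.17 and 6.003. Ephb4, Cyct, Sod3 and Sh3rf2 had lower folds between 5.00 and 5.99.

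Calls in the knockout were also read by band of fold. Below a lower fold of 5, both knockout libraries called 38.9% of 1246 gene-end regions and 39.1% of 3059 others. From 5 to 10 they called 89.6% of 556 and 81.5% of 2713, and from 10 to 20 all 236 gene-end regions and 98.2% of 1251 others. Every gene-end region called in a room temperature library was called in both knockout libraries. The share over all regions is not given here, so this cannot be read as particular to gene ends.

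The largest group, 1020 regions (44.6%, against 45.2% of all regions), was called in the second pair and both knockout libraries and in none of the other 6. Ywhag had the highest lowest fold there, with 20.6 and 21.6 in the knockout and 24.9 and 28.0 in the second pair, at its far end (chr5:135908503-135909868). That gene had another region at its start that was called in 8 lists. Etfa, an electron transfer flavoprotein of fat oxidation, had 18.3 and 19.6, and 20.1 and 23.3. Cidec, which enlarges lipid droplets, had 27.0 and 25.1 in the knockout and 16.1 and 18.9 in the second pair.

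Cidec was thus higher in both knockout libraries than in both second pair libraries, and Etfa and Ywhag lower. Clu, the extracellular chaperone clusterin, had 26.1 and 17.6, and 15.4 and 21.3, which overlapped. Tuba8, Eps15l1 and the RNA-binding protein Msi2 had folds between 15.6 and 26.1 in these 4 libraries. The folds of different libraries were not tested as levels.

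**Figure D3:**
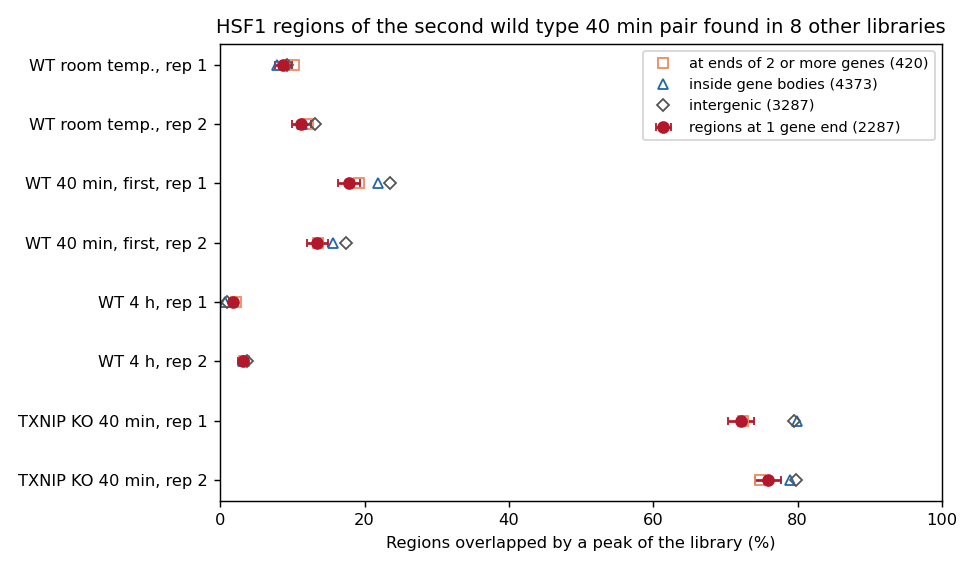
Percent of regions overlapped by a peak of each of 8 libraries, for regions at 1 gene end (filled circles, with the exact 95% binomial interval) and for 3 other classes (open symbols). Gene-end regions lie below gene-body and intergenic regions in the first pair and the knockout, for example 72.2% against 79.97% of gene-body regions in knockout replicate 1.

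Gene-end regions were compared with the other 8080 regions over the 8 libraries that did not choose them. The share called differed by -2.24 points on average (SD over libraries 2.75) and was lower in 6 of 8 libraries. The two-sided exact sign-flip permutation test over the 8 libraries gave p = 0.0547, or 0.109 after Benjamini-Hochberg adjustment over 4 comparisons. Against 3287 intergenic regions it was -2.91 points (lower in 7 of 8, p = 0.0313, adjusted 0.109, exact). Against 4373 regions inside gene bodies it was -1.91 (adjusted p = 0.146, exact) and against 420 regions at ends of 2 or more genes -0.468 (adjusted p = 0.164, exact). None passed the threshold of 0.05 after adjustment.

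On average over the 8 libraries, regions at gene starts were called less often than those at far ends. There were 1717 regions at starts, 148 at far ends and 422 at genes for which the tables used here gave no strand. The difference was -2.38 points, lower in 7 of 8 libraries (exact sign-flip permutation test, p = 0.0391, outside the adjustment above). It lost its call in 11 of 16 alternatives. Among these 11 was the average of the 2 libraries of a group (exact sign-flip permutation test, p = 0.25). An exact sign-flip permutation test over 4 group means cannot go below p = 0.125, so that alternative could not keep the call. As at Hspb1, the midpoint of a wide region can fall nearer the other end than its summit does. Far-end regions also had higher median second pair folds, 6.47 and 6.86 against 5.18 and 5.15 at starts. The part of fold in the difference in calls was not tested.

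The distribution of folds was wider at gene ends. In the second pair the median fold was 5.33 and 5.32 for gene-end regions and 6.61 and 7.03 elsewhere, while the 99th percentile was 253 and 260.6 against 99.2 and 101. Folds of 200 or more in both lists were found in 31 gene-end regions (1.36%), 8 regions at ends of 2 or more genes (1.91%), 4 inside gene bodies (0.0915%) and 5 intergenic regions (0.152%). Of the 31, 20 lay at genes of the protein folding and breakdown lists.

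Within each list the median log2 fold of the called gene-end regions, minus that of the others, averaged 0.02 over 10 libraries (exact sign-flip permutation test, p = 0.82). The second pair, whose calls chose all these regions, is among the 10. It was positive in the 6 room temperature, first pair and 4 h libraries, from 0.14 to 0.56, and negative in the 4 knockout and second pair libraries, from -0.27 to -0.40. The long lists include many weak regions that the short lists do not, and the part of this in the change of sign was not tested. Over the same 174 gene-end and 575 other regions called in all 8 lists other than 4 h, an alternative added after the data were seen, the difference was positive in all 8, from 0.26 to 0.42. The median width was 862 bp for gene-end regions and for regions at ends of 2 or more genes, 782 bp inside gene bodies and 767 bp between genes.

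Promoter sequences were then read beside these calls. The RefSeq table holds windows of 300 bases, 250 before and 50 after a gene start, and 1865 of the 2287 regions had a gene in it. The window overlapped the region for 1586, and held the summit of replicate 1.1 for 681. The first reading is of motifs in windows that overlap the region, the second of heat shock elements in those that hold the summit. Motifs were sought on both strands, and a match is a description of letters only.

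The 3-unit element GAANNTTCNNGAA was present without mismatch in 1.32% of the 1586 regions, in any overlapping window of the gene. It was present in 0.517% of 21263 single windows of all protein-coding genes. The 21263 windows belong to 17492 genes. A region with several windows counts once, so shares of regions and of windows are not counted alike, here and below. The GC box GGGCGG was present in 77.8% against 46.2%, the ETS core CCGGAA in 28.1% against 18.7%, and the cAMP element TGACGTCA in 4.22% against 2.23%. The overlapping windows were richer in G and C, with a median of 65.0% against 56.3%. The part of this in the motif shares was not tested. The AP-1 site TGANTCA was rarer, at 4.60% against 6.99%. The inverted CCAAT box ATTGG (37.6% against 38.2%), the C/EBP palindrome TTGCNNCAA (1.26% against 1.79%) and the direct repeat AGGTCANAGGTCA (0 against 0.0470%) were near or below the share of all windows.

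With up to 1 mismatch, a rule added after the data were seen, the 3-unit element was present in 6.57% of all single windows. It was present in a window that holds the summit at 15.9% of the 681 regions (exact 95% interval 13.2% to 18.8%, for counting error only). The share differed by the number of lists that called the region. It was 3.97% of 126 regions called in 2 lists, 4.52% of 155 in 3 and 12.5% of 295 in 4. It was 47.9% of 48 in 5 or 6 lists (33.3% to 62.8%), 51.3% of 39 in 7 or 8 (34.8% to 67.6%) and 88.9% of 18 in 9 or 10 (65.3% to 98.6%). Regions called in 5 or more lists held it in 59 of 105 cases, and those in 2 to 4 lists in 49 of 576.

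**Figure D4:**
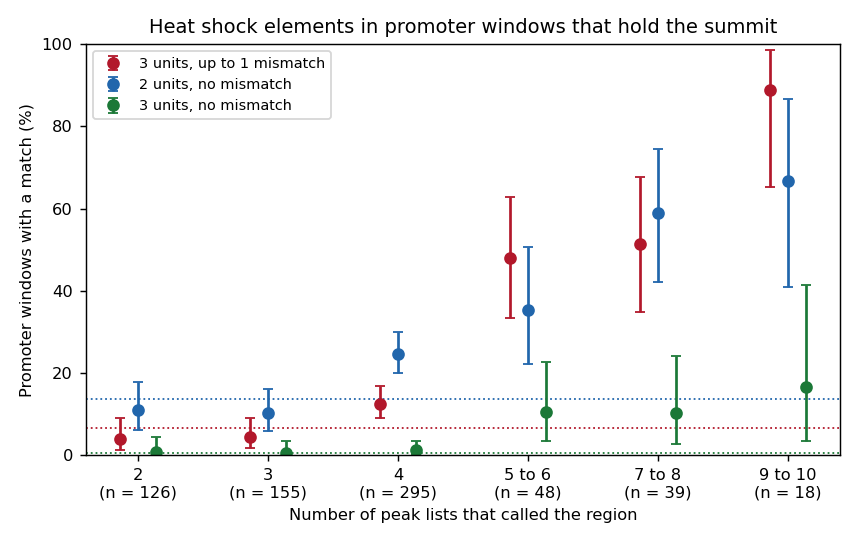
Share of regions with a heat shock element in a promoter window that holds the summit, by the number of peak lists that called the region. Bars are exact 95% binomial intervals. Dotted lines give the share of all single protein-coding promoter windows. For 3 units with up to 1 mismatch the share runs from 3.97% in 2 lists to 88.9% in 9 or 10.

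The last group held under 20 regions. Without it, regions called in 5 to 8 lists still held the element in 47.9% and 51.3%. With the summit of replicate 2.1 in place of 1.1 the shares were 8.49% of 624 regions in 2 to 4 lists and 54.2% of 107 in 5 to 10. The same held at ends of 2 or more genes, with 15 of 152 and 17 of 34, so the pattern was also present outside single gene ends. For the 2-unit element (GAANNTTC or TTCNNGAA) the share ran from 11.1% in 2 lists to 66.7% in 9 or 10, against 13.7% of all windows. The GC box showed no such course, with 77.0% in 2 lists and 66.7% in 9 or 10.

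Among regions called in all 10 lists, 11 had a window that held the summit and 10 of these held the element: Adgra3, Dnaja1, Fkbp4, Gpbp1, Hspa1b, Hspb1, Hsph1, Rsrp1, Ube2d3 and Zfand2a. The 11th was Ubqln1, a shuttle of ubiquitinated proteins to the proteasome. These names follow from the window and were not chosen by fold. Over all 108 regions with a match the centre of the nearest one lay a median of 26 bp from the summit, and 85 lay within 50 bp.

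**Figure D5:**
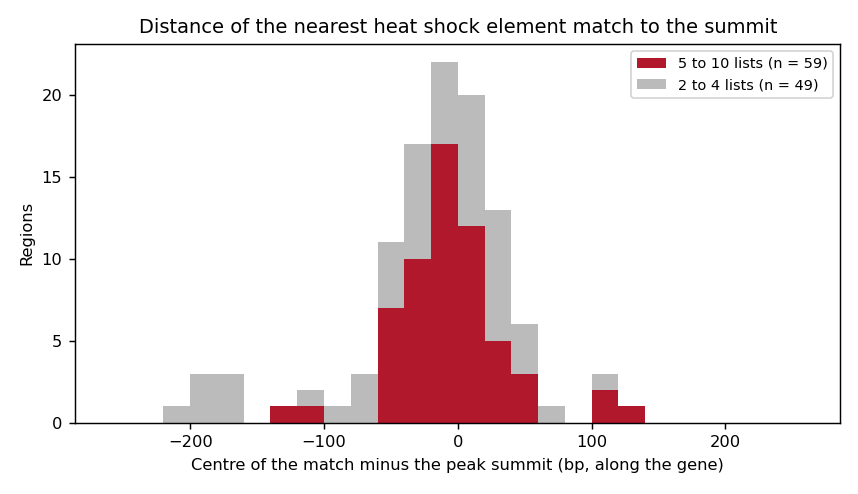
Distance from the peak summit of replicate 1.1 to the centre of the nearest 3-unit heat shock element with up to 1 mismatch, in bins of 20 bp, for 59 regions called in 5 to 10 lists and 49 called in 2 to 4 (stacked bars). Of the 108 matches, 85 lie within 50 bp of the summit.

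At the limit of 1000 bp, the regions just inside lay at Defb25 and Ddi2, each 996 bp from the gene end, and those just outside at Ercc5 and Prss21, each at 1001 bp. Second pair folds were 5.43 and 4.29 at Defb25 and 20.5 and 19.7 at Ddi2, beside 6.77 and 7.03 at Ercc5 and 19.5 and 22.0 at Prss21. The 26 regions at 951 to 1000 bp had a median lower fold of 5.26 and the 39 at 1001 to 1050 bp one of 6.52.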

How the data were processed

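HSF1 ChIP-seq libraries, 10 of 15 samples, were analysed; the 5 inputs were not analysed here, and 1 of them carries a title and a treatment label that disagree. Tools named in the submitters' processing notes are MACS2 2.2.7.1, BWA 0.7.17, Trim Galore 0.6.0, deepTools 3.4.3 and SAMtools, with the build GRCm38.p6. The authors deposited narrow peak lists called per library. Each deposited line has a fold enrichment (a linear ratio), the −log10 of p and of q (smallest −log10 q 1.3), an integer score that was not used, and positions. Not given in the sources used here are read filters and the input behind each list, and depth is unknown.

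Identical intervals were counted once, chromosomes 1 to 19, X and Y were kept, and lists were merged at 1 bp overlap. Genes were 21887 protein-coding genes of GRCm38.p6, of which 17492 had a strand through the RefSeq promoter table. A region's fold in a list is that of its strongest overlapping peak. Libraries, not regions, were the units of every test, by exact sign flips over libraries or exact permutation of 2 against 2 (Python 3.11.15, numpy 2.4.6, pandas 2.3.3, scipy 1.17.1). Intervals cover counting error only. The scripts were tested on simulated data, where all 800 simulated regions came out in the right class.

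The regions and the 22 gene lists (505 of 506 symbols matched) were chosen with earlier results of these data known. Named were up to 12 regions called in all 10 lists, by lowest fold, up to 8 each gained at 40 min, lost at 4 h, in neither knockout library, or in the second pair and knockout only, 2 to 4 examples per gene list, and those at the 1000 bp limit. Of the regions so named, 2 are not reported here. Alternatives were the limit (500 and 2000 bp), summit for midpoint, stricter overlap, −log10 q of 3 or more, equal list lengths, the replicate block and leaving out each library.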

Additional observations from a re-analysis of the deposited data

Results flagged for a closer look

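The median log2 fold of gene-end regions minus that of other regions differed in sign between groups. As the mean over the 2 libraries of a group it was 0.19 at room temperature, 0.18 in the first pair and 0.40 at 4 h, and -0.29 in the knockout and -0.36 in the second pair. Every library of the first 3 groups was above 0 and every library of the other 2 below 0, and the difference between groups was not tested. On the assembled chromosomes, the lists of the first 3 groups hold at most 2287 peaks and those of the other 2 at least 10399, and the part of list length in this was not tested. Over 1 fixed set of regions, those called in all 8 lists other than 4 h, the difference was above 0 in all 8.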

How the results depend on the processing

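Of 193 alternatives, 167 left a result's direction, its side of the threshold or its count in place and 26 did not. The comparisons of calls with the 4 other sets of regions kept direction and side in all 16 alternatives each. Starts against far ends lost its call at 2000 bp (-1.57), by summit (-2.67) and at −log10 q of 3 or more (-2.18). It ranged from -1.74 to -2.90 over the libraries left out. By group means (-2.38) it could not keep its call. The exact sign-flip permutation test over 4 group means allows no p below 0.125, so group means decide no side of the threshold here or above. The median log2 fold difference turned to -0.00111 at 500 bp, to -0.0145 with −log10 p, and to -0.0367 without 4 h replicate 2. Its highest value was 0.0604 with a library outside the second pair left out and 0.0787 with one of that pair left out. It became 0.343 on regions called in all 8 lists other than 4 h, an alternative chosen after seeing the data. The same regions are measured in each of these 8 lists, and the second pair among them chose the regions, so no test is read from this value. With equal list lengths the first pair minus room temperature turned to -0.284. Gained regions were 33 at 500 bp and 9 at equal length, and 65 to 149 with a room temperature or first pair library left out and 53 and 50 with a second pair library left out. Lost regions were 16 at equal length, and 115 to 186 with a library left out, the highest without room temperature replicate 1. Regions in neither knockout library were 551 and 636 with 1 knockout library left out and 941 and 752 with 1 second pair library left out. Those in all 10 libraries were 37 to 66 with a library left out, the highest without 4 h replicate 1, except 35 without second pair replicate 2.1. The cause of these changes was not tested. In the replicate block, which pairs same-numbered libraries, the first pair minus room temperature was 5.62 points, with 2 pairs a smallest p of 0.5; the numbers alone do not show that libraries were paired. Depth is unknown, so a missing peak says nothing of binding below the authors' threshold.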
